A study of Mus musculus with 6 samples.

Results

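The genes described here are 10 components of the Notch pathway and of the secretory fate choice that it governs in the intestinal crypt, taken by symbol from a table of FPKM values for 22611 genes. They are the receptors *Notch1* and *Notch2*, the ligands *Dll1*, *Dll4* and *Jag1*, the Notch target *Hes1*, the secretory lineage factors *Atoh1* and *Gfi1*, and the endocrine lineage factors *Neurog3* and *Neurod1*. Of the 10 symbols, 9 had a row in the table, and the expression of *Gfi1* was not analysed here. FPKM is the number of sequenced fragments assigned to a gene per kilobase of its transcript, scaled to the depth of the library, so that levels can be set side by side between genes. RNA-seq was performed on duodenal epithelium from 3 WT and 3 *Esrra*-/- mice, with 1 library per mouse, to ask what the loss of the nuclear receptor ESRRA changes in this tissue. All mice were fed a high-fat diet. *Esrra*-/- mice are germline null, so that ESRRA was missing in every tissue and not in the epithelium alone. The controls were littermates from a colony that also carried a floxed *Esrra* allele and the *Villin-CreERT2* transgene, which is active in intestinal epithelium. The labels call the controls WT, and the sources used here do not give the ages of these mice. Both sexes were used. The epithelium was released with EDTA, and the labels describe no sorting, so each library holds a mixture of cell types.

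In the crypt, neighbouring cells choose between an absorptive and a secretory fate by lateral inhibition. A cell that displays Delta or Jagged ligands activates Notch receptors on its neighbours, the receptor is cut by ADAM proteases and gamma-secretase, and the released intracellular domain joins RBPJ at target genes such as *Hes1*. HES1 represses *Atoh1*, the factor that commits a cell to the goblet, Paneth and enteroendocrine lineages, and a cell that escapes Notch signalling therefore turns on *Atoh1* and itself displays ligand. Downstream, *Gfi1* favours goblet and Paneth fates, while *Neurog3* and then *Neurod1* direct the enteroendocrine lineage.

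The sequences upstream of *Atoh1* and *Neurog3* are shown because HES1, whose transcript is described below, is a known repressor of both genes. They are the 250 bases before the RefSeq transcription start in GRCm38.p6, 5′ to 3′ on the strand of the gene, at chr6:64728875-64729124 on the plus strand for *Atoh1* and chr10:62132840-62133089 on the plus strand for *Neurog3*. Capitals mark CACGNG, a form of the HES class C site, read on either strand.
Atoh1: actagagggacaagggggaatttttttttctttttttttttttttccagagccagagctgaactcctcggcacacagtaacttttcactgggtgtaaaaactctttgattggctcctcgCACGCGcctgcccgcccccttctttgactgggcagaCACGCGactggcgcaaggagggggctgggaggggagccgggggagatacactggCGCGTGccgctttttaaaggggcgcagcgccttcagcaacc
Neurog3: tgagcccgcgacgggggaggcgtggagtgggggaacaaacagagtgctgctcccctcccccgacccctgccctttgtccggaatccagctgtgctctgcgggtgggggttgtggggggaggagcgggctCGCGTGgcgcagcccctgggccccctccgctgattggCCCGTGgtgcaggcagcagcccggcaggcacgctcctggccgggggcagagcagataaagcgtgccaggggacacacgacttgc
The *Atoh1* stretch held 3 such matches, at 131, 95 and 41 bases before the start, and the *Neurog3* stretch held 2, at 121 and 84 bases before it. Of the 10 symbols, 9 had an entry in the promoter table, with 11 starts in all. *Hes1* had no entry and was not searched, while *Gfi1* is among these 9. CACGNG was present upstream of 7 of these 9 genes, against 23.5% of the 32851 mouse promoters of the same length, and the N-box CACNAG was present in 3 of them, against 36.7% of all promoters. The GC content of the 11 stretches ran from 55.6% to 72.0%, where the median of all promoters was 52.4%. In the 11 stretches, which leave out *Hes1*, the RBPJ core TGGGAA was found on neither strand (21.6% of all promoters hold it), nor was the ESRRA half-site AAGGTCA (4.08%). These are letter matches in a short window, not measured binding sites.

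*Esrra* had 12.6% of its WT level in the *Esrra*-/- libraries and passed the test as lower. Fragments behind the values were recovered from low genes with 1 annotated transcript, whose FPKM fell on whole numbers of fragments (within 0.1) in every one of 1099 to 1179 genes per library, and this put the authors' divisor at 16100000 to 20000000 fragments. Genes of chromosome Y were at a trace in WT replicate 3 and *Esrra*-/- replicate 3 and at 27.3 FPKM or more, summed over the genes, in the other 4 libraries. *Vil1*, which encodes the microvillus protein villin and defines this epithelium, ran from 673 to 1204 FPKM. *Sox10*, a gene of enteric glia, was listed at 0 in all 6 libraries. Of 10596 genes with a mean FPKM above 1 tested with limma, 3.28% were called lower and 1.35% higher in *Esrra*-/-, where a call needs an unadjusted p under 0.05 together with a log2 fold change of more than 0.58 in size, on the log2(FPKM + 0.1) scale.

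None of the 9 genes was called in either direction, and *Hes1* had the smallest p. Among the 7 genes above the FPKM minimum, limma called 0 lower and 0 higher, and 1 of them, *Hes1*, had an unadjusted p under 0.05, where 10.8% of all genes tested had one. The difference was negative in *Esrra*-/- for 6 of the 7, as it was for 45.7% of all genes tested, with a median of −0.19 against 0.030 over all genes. For 2 of the 7, *Hes1* and *Neurog3*, the highest *Esrra*-/- value was lower than the lowest WT value, a pattern seen in 9.14% of all genes tested. The opposite arrangement was seen for 0 of the 7 and for 8.45% of genes. The 2 receptors missed the minimum and are given by their values. In bulk RNA, fewer cells that express a gene and less RNA of that gene in each cell cannot be told apart, and this holds for every value that follows.

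**Figure D1:**
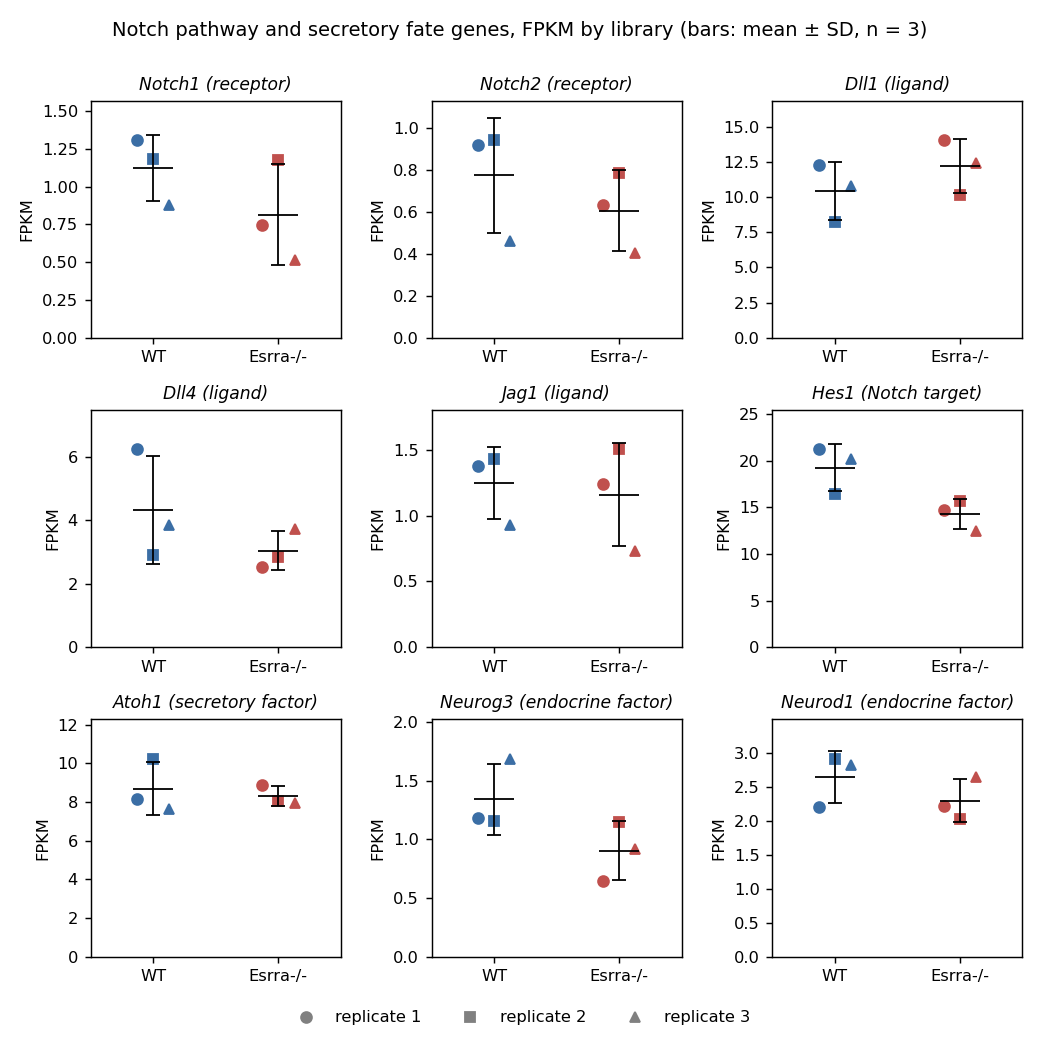
FPKM of the 9 genes in each library, with WT in blue and Esrra-/- in red, the marker shape giving the replicate number and black bars the mean ± SD (n = 3 mice each). Each axis starts at 0. Groups are apart for Hes1 (WT from 16.4, Esrra-/- up to 15.7 FPKM) and, narrowly, for Neurog3, and overlap in the other panels.

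The receptors were the lowest of the 9 genes, and their values overlapped between genotypes. *Notch1*, the receptor that with *Notch2* keeps crypt progenitors from secretory fates, is found at 26313423 to 26372183 of chromosome 2 in mm9 (minus strand). It had 1.31, 1.18 and 0.882 FPKM in WT replicates 1 to 3 and 0.749, 1.18 and 0.517 FPKM in *Esrra*-/- replicates 1 to 3. *Esrra*-/- replicate 2 stood at the level of WT replicate 2, while the other 2 *Esrra*-/- libraries lay below every WT library. The means were 1.12 ± 0.219 and 0.814 ± 0.334 FPKM (SD, n = 3 each), a difference of −0.47 on the log2 scale (two-sided exact permutation test, p = 0.2). It was −0.22 without *Esrra*-/- replicate 3, −0.74 without *Esrra*-/- replicate 2 and −0.24 with a pseudocount of 1. *Notch2* (chromosome 3, 97817461 to 97954290, plus strand) had 0.921, 0.943 and 0.460 FPKM in WT and 0.632, 0.786 and 0.403 FPKM in *Esrra*-/-. The lowest library of each genotype was replicate 3, for *Notch2* as for *Notch1*. The difference of −0.29 was within the spread between mice (exact permutation test, two-sided, p = 0.5). Single libraries moved it widely, to −0.065 without *Esrra*-/- replicate 3, −0.14 without WT replicate 2, −0.15 without WT replicate 1, −0.47 without *Esrra*-/- replicate 2 and −0.58 without WT replicate 3, and a pseudocount of 1 gave −0.14.

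FPKM divides by length, and both receptors have long transcripts. With transcripts of up to 9488 and 10506 bases, about 78 to 237 fragments per library lie behind *Notch1* and 67 to 187 behind *Notch2*, if all came from the longest transcript. That is more than the 16 to 37 fragments of *Neurog3*, a gene of 1540 bases that passed. With no filter on low values, limma gave adjusted p of 0.925 for *Notch1* and 1.0 for *Notch2*. *Notch1* exceeded *Notch2* in all 6 libraries, with ratios of 1.42, 1.25 and 1.92 in WT and 1.19, 1.50 and 1.28 in *Esrra*-/-.

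Among the ligands, *Dll1* was higher and *Dll4* lower on average in *Esrra*-/-, with overlapping groups for both, and neither difference passed adjustment over all genes. *Dll1* and *Dll4*, the Delta ligands of secretory progenitors and Paneth cells, lie on chromosome 17 (15504318 to 15513836, minus strand) and chromosome 2 (119151520 to 119161698, plus strand). *Dll1* had 12.3, 8.23 and 10.8 FPKM in WT and 14.1, 10.2 and 12.4 FPKM in *Esrra*-/-. It was the only one of the 9 genes with a positive difference, yet WT replicate 1 exceeded *Esrra*-/- replicate 2 and the groups overlapped. This amounted to a log2 fold change of 0.23 (SE, the standard error, 0.19; limma adjusted p = 0.689), with a range from 0.073 without WT replicate 2 to 0.36 without WT replicate 1 when single libraries were left out.

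*Dll4* had 6.24, 2.91 and 3.85 FPKM in WT and 2.53, 2.86 and 3.73 FPKM in *Esrra*-/-. WT replicate 1 was the highest library by far, and the other 5 lay between 2.53 and 3.85 FPKM. The means were 4.33 ± 1.72 and 3.04 ± 0.620 FPKM (SD, n = 3 each), and the log2 fold change was −0.45 (SE 0.29, limma adjusted p = 0.609). Without WT replicate 1 it was −0.15, and without WT replicate 2 it was −0.69 and the gene was called lower, so single libraries decided this value. *Dll4* is also a gene of endothelium. Of 8 endothelial markers, *Cdh5* and *Kdr* reached at most 0.0264 and 0.0107 FPKM, while *Lyve1*, *Tek* and *Egfl7* averaged 2.65, 1.07 and 0.837 FPKM over the libraries. The list summed to 2.79 to 5.17 FPKM in WT and 5.14 to 7.10 FPKM in *Esrra*-/-, and its part in the value of *Dll4* was not tested. *Jag1*, a ligand of the Jagged type, is found at 136907192 to 136942380 of chromosome 2 (minus strand). It had 1.38, 1.43 and 0.932 FPKM in WT and 1.24, 1.51 and 0.732 FPKM in *Esrra*-/-, and replicate 3 was again the lowest in each genotype. The log2 fold change of −0.13 (SE 0.35, limma adjusted p = 0.915) became 0.14 without *Esrra*-/- replicate 3.

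The balance of the Delta ligands was compared within libraries. The ratio of *Dll1* to *Dll4* was 1.97, 2.83 and 2.80 in WT and 5.55, 3.56 and 3.33 in *Esrra*-/-. All *Esrra*-/- ratios lay above all WT ratios, with means of 4.15 ± 1.22 and 2.53 ± 0.485 (SD, n = 3 each; exact permutation test, two-sided, p = 0.1, which no 3 against 3 comparison can go below). Over the 5 ratios compared, the adjusted p was 0.5. The ratio of *Dll1* to *Jag1* overlapped between genotypes, at 8.74 ± 2.90 in WT and 11.7 ± 5.11 in *Esrra*-/- (SD, n = 3 each; exact permutation p = 0.5).

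**Figure D2:**
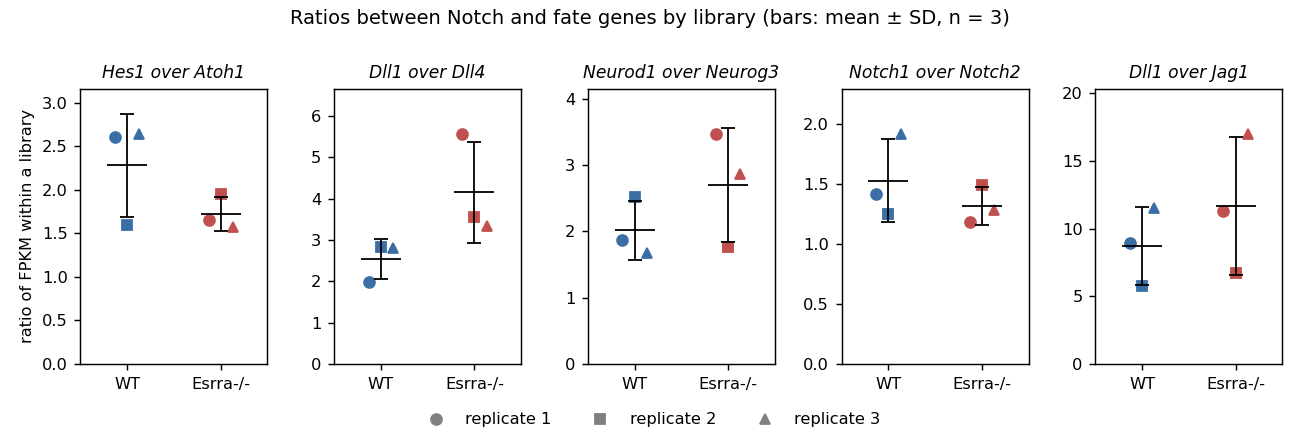
Ratios of FPKM between pairs of genes within each library, with WT in blue and Esrra-/- in red, marker shapes for replicates and bars for the mean ± SD (n = 3 each). The ratio of Dll1 to Dll4 is the one whose groups do not overlap, from 1.97 to 2.83 in WT and from 3.33 to 5.55 in Esrra-/-.

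*Hes1*, the transcriptional repressor through which Notch blocks the secretory programme, had the highest level of the 9 genes and the smallest p. It is found at 30064470 to 30067882 of chromosome 16 (plus strand). It had 21.2, 16.4 and 20.2 FPKM in WT and 14.7, 15.7 and 12.5 FPKM in *Esrra*-/-. Every *Esrra*-/- library lay below every WT library, and the gap between WT replicate 2 and *Esrra*-/- replicate 2 was small. The means were 19.3 ± 2.55 and 14.3 ± 1.63 FPKM (SD, n = 3 each), so that *Esrra*-/- stood at 74.1% of WT (exact permutation test, two-sided, p = 0.1). The log2 fold change was −0.43 with a 95% interval from −0.78 to −0.074 (SE 0.15). This is smaller than the 0.58 that a call needs, and the difference did not pass adjustment over all genes, at a limma adjusted p of 0.393. Leaving out single libraries gave −0.54 to −0.33, and the unadjusted p stayed under 0.05 without WT replicate 2 or *Esrra*-/- replicate 2 but not without any of the other 4. Without WT replicate 3 and *Esrra*-/- replicate 3, the libraries with Y-linked genes at a trace, it was −0.30, again with an unadjusted p above 0.05.

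The genotypes overlapped for *Atoh1*. This single-exon gene, the switch for secretory lineages, is found at 64679140 to 64681227 of chromosome 6 (plus strand). It had 8.14, 10.2 and 7.66 FPKM in WT and 8.89, 8.05 and 7.95 FPKM in *Esrra*-/-. WT replicate 2 was the highest library, and the *Esrra*-/- libraries lay within the WT range. The log2 fold change was −0.055 (SE 0.14, limma adjusted p = 0.913), with a 95% interval from −0.39 to 0.28, and it became 0.068 without WT replicate 2. The values rest on 301, 373 and 236 fragments in WT and 311, 305 and 243 in *Esrra*-/-, where summed counts gave an *Esrra*-/- to WT ratio of 0.951 (95% exact conditional interval 0.865 to 1.05, counting error only). The ratio of *Hes1* to *Atoh1* was 2.61, 1.60 and 2.64 in WT and 1.65, 1.95 and 1.57 in *Esrra*-/-. WT replicate 2 lay among the *Esrra*-/- libraries for this ratio (two-sided exact permutation test, p = 0.3).

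*Neurog3*, which is transiently expressed in endocrine progenitors, was the lowest of the tested genes. It is found at 61595838 to 61597511 of chromosome 10 (plus strand). It had 1.18, 1.16 and 1.69 FPKM in WT and 0.642, 1.15 and 0.920 FPKM in *Esrra*-/-. In whole fragments these values are 31, 30 and 37 in WT and 16, 31 and 20 in *Esrra*-/-. The FPKM values did not overlap, but WT replicate 2 and *Esrra*-/- replicate 2 differed by 1 fragment, in the other direction. The means were 1.34 ± 0.300 and 0.904 ± 0.254 FPKM (SD, n = 3 each; two-sided exact permutation test, p = 0.1), and the log2 fold change was −0.53 with a 95% interval from −1.30 to 0.23 (limma adjusted p = 0.591). Dropping *Esrra*-/- replicate 2 gave −0.71, dropping *Esrra*-/- replicate 1 gave −0.33, and a pseudocount of 1 gave −0.30. Summed over libraries, 98 fragments in WT and 67 in *Esrra*-/- gave a ratio of 0.689 (95% exact conditional interval 0.497 to 0.949, counting error only). That interval takes no account of the spread between mice, which the limma interval holds.

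*Neurod1*, which acts after *Neurog3* in endocrine differentiation, is found at 79292678 to 79296908 of chromosome 2 (minus strand). It had 2.20, 2.91 and 2.81 FPKM in WT and 2.22, 2.03 and 2.64 FPKM in *Esrra*-/-. The ranges overlapped, since WT replicate 1 lay among the *Esrra*-/- libraries. The log2 fold change was −0.19 (SE 0.19, limma adjusted p = 0.747), with a range from −0.31 without WT replicate 1 to −0.11 without *Esrra*-/- replicate 2, and −0.12 under quantile normalization. The ratio of *Neurod1* to *Neurog3* averaged 2.02 ± 0.443 in WT and 2.70 ± 0.860 in *Esrra*-/- (SD, n = 3 each; exact permutation p = 0.3).

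**Figure D3:**
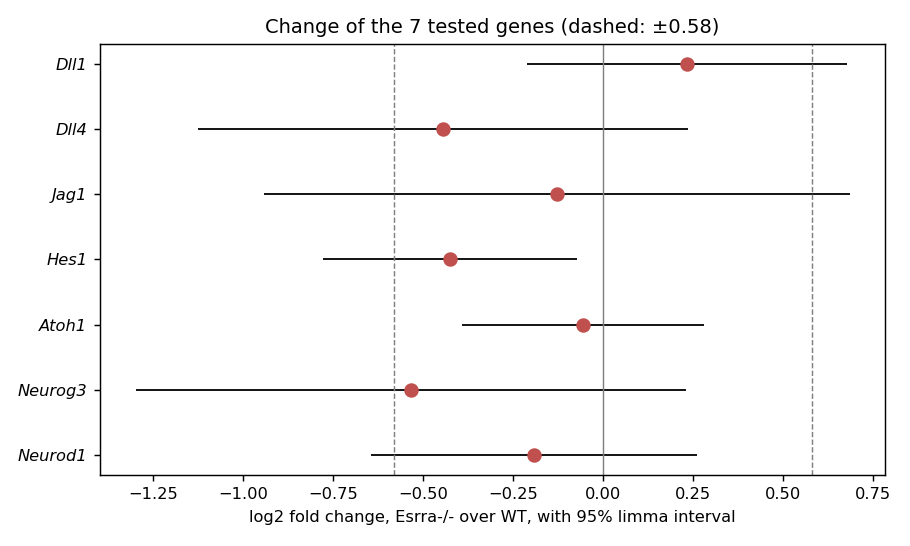
Log2 fold change of the 7 tested genes in Esrra-/- over WT on the log2(FPKM + 0.1) scale, with 95% intervals from limma and dashed lines at the 0.58 set for a call. The interval of Hes1 (−0.78 to −0.074) is the one that lies wholly below 0, and those of Dll1, Dll4, Jag1, Atoh1, Neurog3 and Neurod1 include 0.

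By mean level per length over the 6 libraries, the order was *Hes1*, *Dll1*, *Atoh1*, *Dll4*, *Neurod1*, *Jag1*, *Neurog3*, *Notch1* and *Notch2*. *Hes1* exceeded *Dll1* in all 6 libraries, by 1.48 times on average, although their ranges met. The ranges of neighbours in this order were apart at 2 places, between *Atoh1* and *Dll4*, which differed by 2.30 times, and between *Neurod1* and *Jag1*, which differed by 2.05 times. The ranges of *Jag1*, *Neurog3* and *Notch1* overlapped one another. Their order changed from library to library, with *Jag1* above *Neurog3* in 4 libraries and *Neurog3* above *Notch1* in 2. The spread between libraries was narrowest for *Atoh1*, whose highest value was 1.34 times the lowest, and widest for *Neurog3*, at 2.63 times.

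The remaining genes of the pathway had mostly small positive differences. Of 50 further genes listed for the pathway, all had a row and 33 could be tested. Limma called 0 of the 33 in either direction, 3 had an unadjusted p under 0.05, and 26 had a positive difference, with a median of 0.13. Over all genes tested, 10.8% had such a p and 45.7% a negative difference. The groups were apart with *Esrra*-/- above WT for 9 of the 33, against 8.45% of all genes, and below WT for 0, against 9.14%. The other receptors and ligands, *Notch3*, *Notch4*, *Dll3* and *Jag2*, had means of 0.0344 to 0.380 FPKM and were not tested.

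All 8 tested genes of receptor cleavage, which include gamma-secretase subunits and ADAM proteases, had a positive difference, with a median of 0.20, and for 4 of them the groups were apart with *Esrra*-/- above, as for 8.45% of all genes tested. *Furin*, the protease that cuts the receptor on its way to the surface, had 39.0, 32.5 and 40.0 FPKM in WT and 63.7, 48.2 and 47.5 FPKM in *Esrra*-/-. Each *Esrra*-/- library exceeded each WT library, and the log2 fold change was 0.51 (SE 0.17, limma adjusted p = 0.378), short of 0.58.

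Among 8 tested genes of receptor and ligand modification, 6 had a positive difference and 2 a negative one, with a median of 0.056. *Neurl1b*, a ubiquitin ligase of Notch ligands, had 3.56, 3.36 and 3.64 FPKM in WT and 4.40, 4.34 and 7.51 FPKM in *Esrra*-/-. The groups were apart and *Esrra*-/- replicate 3 stood far above the others, with a log2 fold change of 0.56 (limma adjusted p = 0.434). Among 8 tested genes of receptor turnover, 5 had a positive difference, with a median of 0.19, and *Itch*, a ubiquitin ligase that targets Notch, had the smallest p (log2 fold change 0.44, limma adjusted p = 0.393). All 6 tested genes of the nuclear complex had a positive difference, with a median of 0.19. *Rbpj* itself averaged 4.34 ± 0.613 FPKM in WT against 4.65 ± 0.491 FPKM in *Esrra*-/- (SD, n = 3 each; log2 fold change 0.10), and the corepressor *Ncor1* had the smallest p of this list (log2 fold change 0.49, unadjusted p above 0.05).

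Beside *Hes1*, 9 genes were listed with the Notch targets, namely *Nrarp* and members of the HES and HEY families, and 3 passed the minimum. Whether Notch induces each of them in this tissue was not tested. *Nrarp*, a feedback inhibitor induced by Notch, had 11.2, 8.32 and 12.9 FPKM in WT and 10.0, 6.93 and 7.06 FPKM in *Esrra*-/-. WT replicate 2 lay below *Esrra*-/- replicate 1, and the log2 fold change was −0.43 (SE 0.21, limma adjusted p = 0.527). *Hes6*, which opposes HES1, had a log2 fold change of −0.053, and *Hes2* one of 0.23. The other 6, *Hes3*, *Hes5*, *Hes7*, *Hey1*, *Hey2* and *Heyl*, had means of at most 0.340 FPKM.

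Of 27 other factors of the secretory lineages, all had a row and 14 could be tested. Limma called 0 of the 14 in either direction and none had an unadjusted p under 0.05. A negative difference was seen for 11, against 45.7% of all genes tested, and the median was −0.25. *Bhlha15*, which drives maturation of secretory cells, had the smallest p. It had 3.14, 3.26 and 1.86 FPKM in WT and 2.02, 1.77 and 0.713 FPKM in *Esrra*-/-. Replicate 3 was the lowest library in each genotype, the groups overlapped, and the log2 fold change was −0.91 (SE 0.41, limma adjusted p = 0.480). It was called lower without WT replicate 3 and *Esrra*-/- replicate 3, at −0.73, and with a covariate for whether the Y-linked genes summed to more than 1 FPKM (the Y-linked covariate), at −0.91. The goblet and Paneth factor *Spdef* averaged 8.06 ± 0.549 FPKM in WT against 7.26 ± 0.508 FPKM in *Esrra*-/-, *Sox9*, which Paneth cells need, had 4.48 ± 1.18 and 3.31 ± 1.42 FPKM, and *Nkx2-2*, an endocrine factor, had 1.44 and 0.968 FPKM on average (SD, n = 3 each). *Xbp1*, the unfolded protein response factor, had the most positive difference of the list, at 0.23.

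**Figure D4:**
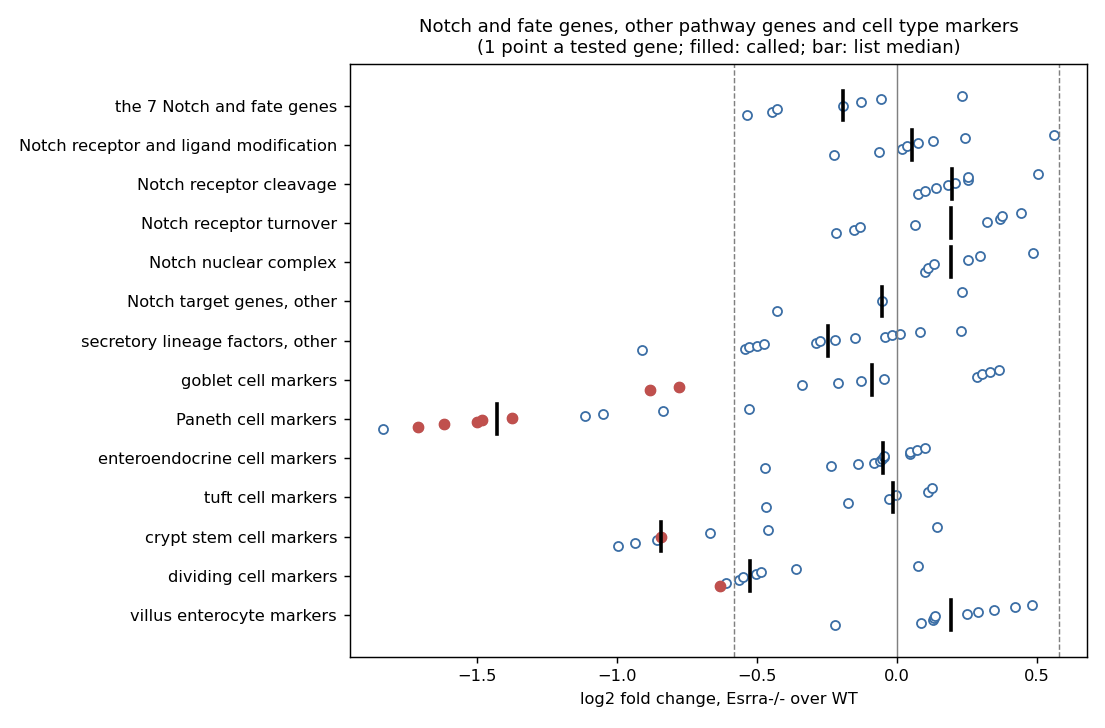
Log2 fold change in Esrra-/- over WT of each tested gene of the Notch and fate genes, of the other pathway and lineage lists and of cell type markers, with called genes filled in red, list medians as black bars and dashed lines at 0.58. No gene of the Notch and lineage lists is called, and the medians are −0.19 for the Notch and fate genes, 0.20 for receptor cleavage, −0.25 for other secretory factors and −1.43 for Paneth markers.

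Among markers of the lineages that follow from these choices, those of Paneth cells had the most negative differences. All 10 Paneth markers had a negative difference in *Esrra*-/-, with a median of −1.43, and 5 were called lower by limma. Of all genes tested, 45.7% had a negative difference and 3.28% were called lower. With single libraries left out, 1 was called without WT replicate 2 or *Esrra*-/- replicate 3, 2 without WT replicate 1, 3 without *Esrra*-/- replicate 1, 6 without WT replicate 3 and 9 without *Esrra*-/- replicate 2. Calls lower over all genes moved as well, from 348 in the main fit to 252 without *Esrra*-/- replicate 1 and 537 without *Esrra*-/- replicate 2. Quantile normalization gave 1 and no filter on low values 0, while the Y-linked covariate gave 8 and the replicate number as a block 9. *Defa24*, the most abundant, had means of 5559 FPKM in WT and 2221 FPKM in *Esrra*-/- (log2 fold change −1.48, limma adjusted p = 0.422), and *Lyz1*, *Ang4* and *Defa17* were among the others called. The alpha-defensins have near-identical copies, so their separate values are uncertain. The summed level of the Paneth list ran from 11756 to 29845 FPKM in WT and from 2188 to 11664 FPKM in *Esrra*-/-. It was narrowly apart between the genotypes, as *Hes1* was. Its lowest WT library was replicate 3, where *Hes1* stood near its highest, and *Esrra*-/- replicate 3 was the lowest library for both. The part of Paneth cell content in the value of *Hes1* was not tested.

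Goblet markers went both ways. Of 10, 6 had a negative and 4 a positive difference, where 3.28% of all genes tested were called lower. Here *Spink4* and *Ccl9* were called lower, with log2 fold changes of −0.78 and −0.88 and limma adjusted p of 0.410 and 0.393. Neither was called without WT replicate 2, without *Esrra*-/- replicate 3 or with no filter on low values, and *Spink4* was not called under quantile normalization or without replicate 1 of either genotype. *Tff3*, the most abundant, had a log2 fold change of −0.046, and the list summed to 4232 to 5174 FPKM in WT and 3702 to 4410 FPKM in *Esrra*-/-. Of 12 enteroendocrine markers limma called 0, none had an unadjusted p under 0.05, and the median was −0.050, with 1 called lower (*Tac1*) without *Esrra*-/- replicate 2. *Gip*, the most abundant hormone gene, averaged 129.7 FPKM in WT against 108.0 FPKM in *Esrra*-/- (log2 fold change −0.24, limma adjusted p = 0.746). The list summed to 358 to 659 FPKM in WT and 378 to 526 FPKM in *Esrra*-/-. Of 6 tested tuft markers limma also called 0, with 0 at an unadjusted p under 0.05 and a median of −0.014, and 1 was called lower (*Alox5ap*) without WT replicate 2. *Sh2d6*, the most abundant of them, averaged 6.55 FPKM in WT and 6.54 FPKM in the other genotype.

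Markers of crypt stem cells and dividing cells, which share their compartment with Notch signalling, were also mostly lower on average in *Esrra*-/-. The shares over all genes tested were 45.7% with a negative difference and 3.28% called lower. Of 7 tested stem cell markers, 6 had a negative difference, with a median of −0.84, and *Smoc2* was called lower (−0.84, limma adjusted p = 0.247), with 4 called without *Esrra*-/- replicate 2, with the Y-linked covariate or with the replicate block, and 2 without WT replicate 3, without replicate 3 of both genotypes, with no filter on low values or without the trend. *Olfm4*, the most abundant, averaged 159 FPKM in WT against 93.3 FPKM in *Esrra*-/- (log2 fold change −0.94, limma adjusted p = 0.546). The list summed to 211, 257 and 140 FPKM in WT and 127, 187 and 57.4 FPKM in *Esrra*-/-. Of 8 markers of dividing cells, 7 had a negative difference with a median of −0.53. An unadjusted p under 0.05 in limma was seen for 5 of them, against 10.8% of all genes tested. *Cdk1* was called lower (−0.63), with 0 markers called without WT replicate 2 or *Esrra*-/- replicate 3, 5 without WT replicate 3 or *Esrra*-/- replicate 2, and 2 without WT replicate 1, without replicate 3 of both genotypes, under quantile normalization, with the Y-linked covariate or with the replicate block. *Cdk1* itself was not called without replicate 3 of both genotypes. *Pcna*, the most abundant, had a log2 fold change of −0.36. This list summed to 159, 191 and 162 FPKM in WT and 122, 150 and 107 FPKM in *Esrra*-/-, so the genotypes were apart as for *Hes1*. Of 10 markers of villus enterocytes 9 had a positive difference, with 0 called by limma, 0 at an unadjusted p under 0.05, a median of 0.19 and *Apoa4* the most abundant (0.42). The part of crypt content in the values of *Hes1*, *Notch1* or *Neurog3* was not tested.

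**Figure D5:**
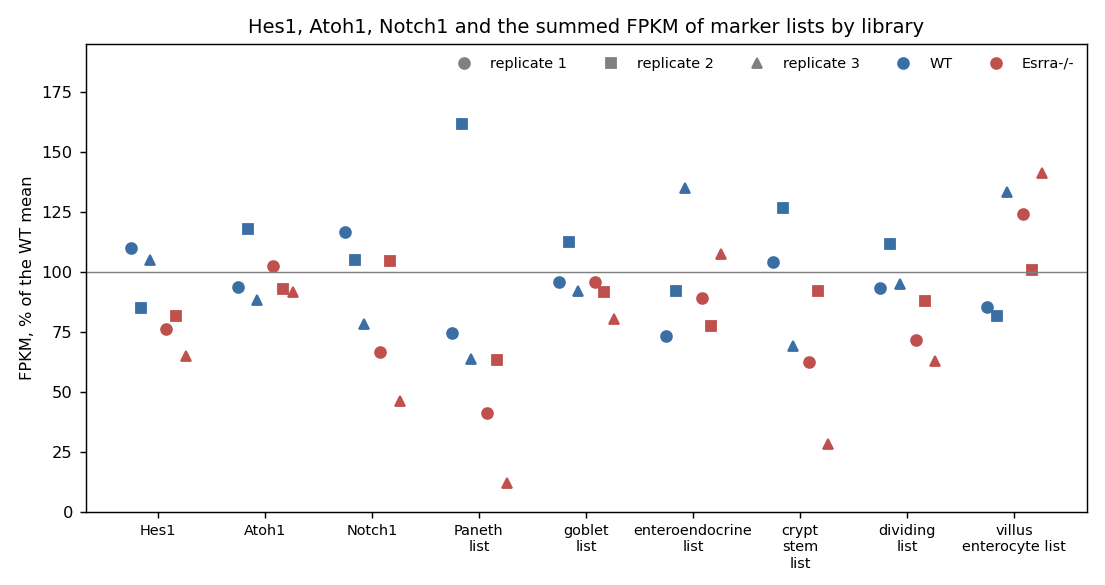
FPKM of Hes1, Atoh1 and Notch1 and the summed FPKM of 6 marker lists, as a percentage of the WT mean, by library (WT in blue, Esrra-/- in red, marker shape for the replicate number). Hes1 and the Paneth and dividing cell lists are apart between genotypes, Atoh1 overlaps, and Esrra-/- replicate 3 is the lowest library for Hes1, Notch1 and the Paneth, goblet, stem and dividing cell lists.

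Markers of cells from outside the epithelium were low. Of the mesenchymal, endothelial, neural and pancreatic acinar lists, the summed levels ran from 2.40 to 4.29, 2.79 to 5.17, 1.20 to 2.54 and 2.44 to 3.62 FPKM in WT and from 2.48 to 7.11, 5.14 to 7.10, 1.18 to 2.02 and 3.54 to 3.56 FPKM in *Esrra*-/-. *Vim*, *Lyve1*, *Ret* and *Cela1* were the most abundant genes of these lists. *Tek*, an endothelial receptor, was called higher, from 0.503 to 1.64 FPKM on average (log2 fold change 2.01, limma adjusted p = 0.397), with overlapping groups. The call was lost without WT replicate 1, WT replicate 3, *Esrra*-/- replicate 2 or *Esrra*-/- replicate 3, without both replicates 3, and with no filter on low values. The immune list, led by *Cd3g* of intraepithelial T cells, summed to 30.1 to 54.9 FPKM in WT and 28.2 to 52.7 FPKM in *Esrra*-/-, with 0 of 6 tested genes called by limma and 1 with an unadjusted p under 0.05.

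Relations along the pathway were computed for 6 pairs over the 6 libraries, and none held after adjustment. *Hes1* and its target *Atoh1* had a Pearson r of −0.16 (exact permutation p = 0.803) and a Spearman rho of 0.029 (p = 1.0). As deviations from the genotype means r was −0.58, and without WT replicate 1 and *Esrra*-/- replicate 3 it was −0.48. *Notch1* and *Hes1* had an r of 0.71 (exact permutation p = 0.108, adjusted p = 0.217) and a rho of 0.83 (p = 0.0583, adjusted p = 0.175). Without *Esrra*-/- replicates 1 and 3, the libraries farthest from the median of *Notch1*, r was −0.18, so the relation rests on them. *Atoh1* and the mean log2 level of the goblet markers had an r of 0.82 (exact permutation p = 0.0194, adjusted p = 0.117) and a rho of 0.94 (p = 0.0167, adjusted p = 0.1). Taken as deviations from the genotype means, r was 0.83, and it was 0.99 within WT and 0.87 within *Esrra*-/-, over 3 libraries each. Without WT replicate 2 and *Esrra*-/- replicate 1 it was 0.27, so this relation too rests on 2 libraries, which hold the highest values of *Atoh1*. *Neurod1* and the enteroendocrine markers had an r of 0.79 (exact permutation p = 0.075, adjusted p = 0.217) and a rho of 0.66 (p = 0.175, adjusted p = 0.35), and r was 0.97 without WT replicate 2 and *Esrra*-/- replicate 2. *Dll1* with *Atoh1* and *Neurog3* with *Neurod1* had r of −0.49 and 0.39 (exact permutation p = 0.386 and p = 0.497), and rho of −0.14 and 0.26 (p = 0.803 and p = 0.658). Both changed sign without 2 libraries, to 0.32 without WT replicate 2 and *Esrra*-/- replicate 1 and to −0.35 without WT replicate 3 and *Esrra*-/- replicate 1.

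The genes whose pattern over the 6 libraries was most like each of the 7 tested genes were taken by Pearson r of log2(FPKM + 0.1) among the 10595 other genes tested. For *Hes1* they were *Metap1d* (r = 0.996), *P2ry6* and *Mat2a*, with log2 fold changes of −0.73, −0.87 and −0.40. For *Atoh1* they were *Nxt2* (r = 0.996), *Appl1* and *Lpar6*, for *Dll1* *Atp6v1a*, *Rbm18* and *Zfp963*, for *Dll4* *Myo19*, *Socs3* and *Zfp219*, and for *Jag1* *Mbtd1*, *Zfp36l2* and *1110008L16Rik*. For *Neurog3* they were *Rsu1*, *Pex10* and *Mrps12*, and for *Neurod1* *Rpl28*, *Rfwd2* and *Fam115c*. None of these is one of the 9 genes. Over these 6 libraries such values were common: 95 genes had an r above 0.9 with *Hes1*, 25 with *Dll4* and 309 with *Jag1*. The points are libraries, and the genes measured in 1 library share its depth and its mixture of cells.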

How the data were processed

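RNA was prepared from EDTA-released duodenal epithelium with an Illumina TruSeq RNA v2 kit, which does not mark strand. Per the labels, the authors used FastQC 0.11.3, Kallisto 2.1.0 against mm9 and DESeq2 2.2.1, and deposited FPKM values for 22611 genes in 6 libraries, which the methods credit to DESeq2. The transcript annotation is not given in the sources used here. A second deposited table holds the authors' own comparison of the genotypes (mean counts, fold changes and p-values) and was not used.

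The members and gene lists were chosen with earlier results of these data known. Genes averaging over 1 FPKM (10596) were tested on log2(FPKM + 0.1) with limma 3.58.1 in R 4.3.3 (lmFit, eBayes with a trend, no covariate, Benjamini-Hochberg over all genes tested). A call needed an unadjusted p under 0.05 together with a log2 fold change of more than 0.58 in size. Single values were tested with two-sided exact permutation tests (scipy 1.17.1). A count test does not suit FPKM. Replicates are separate mice. Whole fragments came from FPKM, transcript length less 190 bases (the offset with the sharpest whole-number steps) and the divisor of each library, for genes with 1 annotated transcript. Gene positions are from GENCODE on mm9, and promoters are from RefSeq on GRCm38.p6. *Clca1* is listed under its older symbol *Clca3*.

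Named genes were the 10 members, *Esrra*, in each pathway list the called genes and the gene with the smallest p, in each marker list the called genes and the most abundant gene, and the 3 genes most like each tested member. Others (*Rbpj*, *Hes6*, *Hes2*, *Spdef*, *Sox9*, *Nkx2-2*, *Xbp1*, *Vil1*, *Cdh5*, *Kdr*, *Sox10*, *Tac1*, *Alox5ap*, the genes under the minimum) were named after their values were seen, and some listed genes are not reported here by name. Alternatives were pseudocount, filter, scaling, variance model, replicate block, a Y-linked covariate, libraries left out and an adjusted threshold.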

Additional observations from a re-analysis of the deposited data

How the results depend on the processing

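The count of 0 Notch and fate genes called higher held under all 16 alternatives, and that of 0 called lower under 15, with 0 to 1 when each library was left out (1, *Dll4*, without WT replicate 2). Of the other pathway genes, 1 was called with no filter on low values (*Hes7*) and 1 without WT replicate 3 and *Esrra*-/- replicate 3 (*Furin*), and 0 to 2 with each library left out (*Neurl1b*, *Nrarp* and *Ncor1*). Of the other secretory factors, 1 was called with no filter (*Mnx1*), 1 with the Y-linked covariate and 1 without that pair of libraries (both *Bhlha15*), and 0 to 2 with each library left out (*Bhlha15*, *Sox4* and *Sox9*). The main fit did not pair the mice by replicate number. Deviations of same-numbered libraries from their genotype means correlated at 0.01, 0.26 and 0.38. For replicates 2 and 3 these were the highest values, while WT replicate 1 correlated best with *Esrra*-/- replicate 2 (0.18). Deviations within a genotype sum to 0, so these correlations depend on one another and cannot decide whether the mice were paired. With the replicate block, 1 other secretory factor was called (*Bhlha15*), 0 Notch and fate genes, and 441 genes lower and 192 higher of all. Over all genes, an adjusted p under 0.05 in the main fit left 2 lower and 2 higher. Genes with such a limma adjusted p numbered 20 with no filter, 32 under quantile normalization, 52 with the Y-linked covariate and 0 with the replicate block. Leaving out each library gave 252 to 537 called lower, with 537 without *Esrra*-/- replicate 2, and 146 to 214 called higher. The fold changes of *Hes1*, *Dll1*, *Neurog3*, *Neurod1*, *Notch1* and *Notch2* kept their sign under every alternative that gave a value. With single libraries left out, *Jag1* ran from −0.33 to 0.14 (positive without *Esrra*-/- replicate 3) and *Atoh1* from −0.14 to 0.068 (positive without WT replicate 2). *Jag1* and *Neurog3* have no value at FPKM above 1 in all 6 libraries. The cause was not tested. No exact comparison of 3 mice against 3 can pass 0.05, and fragments limit *Neurog3*, at 16 to 37 a library.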

Other observations

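Below the minimum of 1 FPKM, 13 of the 27 other secretory lineage factors had means of 0.155 to 0.869 FPKM and were not tested. *Mnx1*, an endocrine factor, averaged 0.672 FPKM in WT against 0.223 FPKM in *Esrra*-/-, and *Pax4*, another, had 0.525 and 0.205 FPKM. The genotypes were apart in 3 of the 13 (*Mnx1*, *Pax4* and *Lmx1a*), each with *Esrra*-/- below WT, against 9.14% of the genes tested above the minimum. With no filter on low values, 1 of the 13 was called, *Mnx1*, with a log2 difference of −1.32 (limma adjusted p = 0.528), and *Pax4* and *Lmx1a* were not. *Pax6*, also of endocrine cells, had 0.656 and 0.740 FPKM. These genes were picked after their values were seen.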
